A study of Mus musculus with 6 samples.

Results

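The genes described here are 39 members of the immediate early and heat shock response, taken by name from the 18193 genes that had a probe set of their own on the array. They were measured in endothelial cells that were sorted from lymph nodes (LN) of 6-week-old C57BL/6 mice on the basis of gp38 and CD31. The 39 genes had 79 probe sets, and a gene is represented by the probe set that was brightest on average over the 6 arrays unless another is named. They consisted of 9 genes of the AP-1 group, 6 of the EGR and NR4A families, 11 feedback regulators, 6 genes of growth and the acute phase, and 7 of the heat shock response. Cyr61 and Ctgf are given under their current names, Ccn1 and Ccn2.

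Mice were anesthetized with tribromoethanol and killed, and peripheral and mesenteric LN were pooled, minced and digested with collagenase and DNAse in steps of 30 min and 40 min. CD45+ cells were depleted with magnetic beads, and live CD45neg cells were sorted. 3 arrays carry the label double positive (DP) together with the word BEC, and 3 carry the label CD31+ together with the word LEC, each numbered as biological replicates 1 to 3. Under the gates of the study gp38+ CD31+ cells are lymphatic endothelial cells (LEC) and gp38neg CD31+ cells are blood endothelial cells (BEC), so the 2 words of a label contradict each other. The arrays are named here by the gate word, and every difference is DP minus CD31+ on the log2 scale. Reading the labels by the cell type word would turn every sign. The labels name neither a mutation nor a treatment for any group, all cells passed through the same digestion, and no undigested sample was analysed here, so the level of these genes in the intact LN was not measured.

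Immediate early genes are transcribed within minutes of a stimulus, by means of transcription factors that are already present in the cell, and need no new protein synthesis. They are switched on by growth factors, shear, cytokines and stress through MAP kinases that act on serum response factor and its partners and on CREB. Many of their products are transcription factors, and others shut the response down again by removing phosphates, by degrading mRNA or by blocking cytokine receptors. Heat shock genes are driven by heat shock factors when unfolded protein accumulates, and their products are chaperones and cochaperones. Both groups of genes are also known to respond to the enzymatic dissociation of tissue.

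Promoter windows from RefSeq (GRCm38.p6), running from 250 bases before to 50 bases after the transcription start, were on hand for 30 of the 39 genes, with 38 windows in all. Fosl1, Egr1, Egr3, Ier2, Ccn2, Myc, Cebpd, Hspa8 and Hsp90aa1 had no window. Windows are printed for Ccn1, the gene with the largest difference, for Maff, Nr4a2 and Hsph1, which passed as higher with the filter and centring described further on, and for the neighbours Hspa1a and Hspa1b, whose differences had opposite signs. Where a gene had several windows, the one with most matches is printed. Capitals mark matches to the motifs searched.
Ccn1, chr3:145649936-145650235, minus strand: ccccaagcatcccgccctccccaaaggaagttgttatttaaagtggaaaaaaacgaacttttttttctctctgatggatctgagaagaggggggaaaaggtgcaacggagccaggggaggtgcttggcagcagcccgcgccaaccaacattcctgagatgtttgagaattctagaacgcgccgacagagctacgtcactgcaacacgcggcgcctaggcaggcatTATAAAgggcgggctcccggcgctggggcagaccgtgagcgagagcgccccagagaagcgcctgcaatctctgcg
Maff, chr15:79347270-79347569, plus strand: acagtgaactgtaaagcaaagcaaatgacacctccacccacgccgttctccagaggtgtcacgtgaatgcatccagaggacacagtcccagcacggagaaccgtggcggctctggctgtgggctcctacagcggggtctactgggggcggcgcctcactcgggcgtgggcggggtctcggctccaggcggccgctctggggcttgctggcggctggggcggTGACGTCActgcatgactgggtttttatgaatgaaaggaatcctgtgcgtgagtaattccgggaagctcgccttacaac
Nr4a2, chr2:57123954-57124253, minus strand: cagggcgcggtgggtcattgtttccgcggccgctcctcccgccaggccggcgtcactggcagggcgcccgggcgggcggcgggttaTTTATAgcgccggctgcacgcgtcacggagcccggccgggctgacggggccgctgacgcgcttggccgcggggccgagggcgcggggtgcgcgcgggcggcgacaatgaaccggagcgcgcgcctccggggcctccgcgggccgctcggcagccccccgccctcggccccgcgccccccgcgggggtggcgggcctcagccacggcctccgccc
Hsph1, chr5:149636287-149636586, minus strand: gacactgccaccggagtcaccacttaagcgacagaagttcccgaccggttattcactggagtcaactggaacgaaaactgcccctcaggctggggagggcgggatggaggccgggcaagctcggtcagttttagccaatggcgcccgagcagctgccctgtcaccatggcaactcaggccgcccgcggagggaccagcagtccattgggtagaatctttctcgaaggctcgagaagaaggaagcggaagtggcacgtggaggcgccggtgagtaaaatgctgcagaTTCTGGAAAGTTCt
Hspa1a, chr17:34972107-34972406, minus strand: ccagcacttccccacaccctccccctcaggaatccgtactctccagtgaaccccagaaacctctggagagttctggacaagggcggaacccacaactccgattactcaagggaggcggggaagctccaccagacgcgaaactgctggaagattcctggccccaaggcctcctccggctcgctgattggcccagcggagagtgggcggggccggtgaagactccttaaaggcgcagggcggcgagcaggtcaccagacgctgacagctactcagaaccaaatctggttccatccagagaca
Hspa1b, chr17:34959189-34959488, minus strand: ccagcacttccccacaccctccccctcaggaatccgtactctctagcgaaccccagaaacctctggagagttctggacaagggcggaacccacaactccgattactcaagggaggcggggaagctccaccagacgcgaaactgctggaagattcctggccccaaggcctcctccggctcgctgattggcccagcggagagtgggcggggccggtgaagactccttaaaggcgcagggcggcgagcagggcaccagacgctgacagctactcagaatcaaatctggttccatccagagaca

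Each motif was searched on both strands. The TATA box (TATAAA, or TTTATA on the other strand) lay in the windows of 9 of the 30 genes, or 30.0%, and in 15.7% of all genes with a window. Counting bases from the start, Ccn1 has it at -25 to -20, and Nr4a2 carries the reverse form at -164 to -159. A full cyclic AMP response element (TGACGTCA), the site of CREB, was found for Maff, Dusp1 and Btg2, or 10.0% of the member genes against 2.03% of all genes. In the printed window of Maff, 1 of 3 for this gene, it lies at -29 to -22. The CArG box, which serum response factor binds, was found for Egr2 and Zfp36, or 6.67% against 1.81%. A heat shock element of 3 alternating units (GAANNTTCNNGAA or TTCNNGAANNTTC) was found for Hsph1 alone among the member genes, from 36 to 48 bases after the start, and for 0.662% of all genes. The AP-1 site (TGACTCA or TGAGTCA) was in none of the member windows and in those of 5.95% of all genes. The CArG box can take in the letters of a TATA box, and the other motifs do not contain one another. A match is a string of letters and not a measured binding site. Only full matches were counted, so a window without a match may still hold an altered form of a motif. The windows of Hspa1a and Hspa1b were identical at 296 of 300 positions, or 98.7%, with an unbroken identical run of 201 bases.

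The gates were first checked against endothelial markers. Pdpn, which encodes gp38, read 8.32, 7.33 and 7.28 on the DP arrays, against 3.69, 3.75 and 3.29 on the CD31+ arrays (adjusted p = 0.0428, limma), and Lyve1 was higher on the DP arrays by 5.32. Flt1 and Cd34, markers of blood endothelium, differed by -4.52 and -4.37. Of 8 lymphatic markers 6 passed as higher and 0 as lower, of 8 blood endothelial markers 0 passed as higher and 5 as lower (limma, 5% FDR), and Prox1 differed by 0.07 only at its brightest probe set. Pecam1, the gene of CD31 itself, was near the floor, at 2.41 on the DP arrays and 2.48 on the CD31+ arrays. Ptprc, which encodes CD45, averaged 2.67 on the DP arrays and 3.72 on the CD31+ arrays. Of 7 hematopoietic markers 4 lay within 0.1 of the floor of 2.39 on all arrays, and the summed linear level of the list ranged from 40.2 to 41.3 on the DP arrays and from 41.5 to 55.6 on the CD31+ arrays. The 8 fibroblastic reticular markers summed to 165 to 234 on the DP arrays and to 211 to 766 on the CD31+ arrays, and 7 of the 8 were below 0 (median -0.86), Col1a2 by -3.11 and Col3a1 by -3.15. Thy1 was called higher and 0 were called lower in limma, with 4 lower by the unadjusted p. The 6 pericyte markers summed to 172 to 248 on the DP arrays and to 126 to 484 on the CD31+ arrays, with none called. Their part in the results that follow was not tested, and fewer cells of a type and less RNA per cell cannot be told apart in such samples.

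The DP arrays were brighter over the bright genes. Over all genes the median difference was 0.0. Within 0.1 of the floor lay 54.9% to 56.3% of probe sets on the DP arrays and 52.3% to 53.2% on the CD31+ arrays. Over the 3984 genes with a mean log2 value of at least 5, the median difference was 0.73, and centring each array on its bright probe sets lowers every difference by 0.68. A difference of about 0.7, called the general shift here, is thus the level of the bright genes at large. Differences of bright members are best read relative to it. It is not a like reference for the dim members. CD31+ replicate 3 was the dimmest array, with 10.7% of probe sets at 5 or more against 12.3% to 14.7% on the others. Precision is limited by the number of arrays.

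As a group the 39 genes moved like other bright genes. Their median difference was 0.69, and 31 of 39 lay above 0, from -0.92 for Hspa1a to 3.26 for Ccn1. With centred arrays the median was 0.01, with 20 genes above 0 and 19 below. limma called 1 of the 39 higher and 0 lower at 5% FDR over all 45037 probe sets, when 0.879% of all genes were called higher and 0.176% lower at 1 probe set per gene. Without adjustment 15 were higher and 1 lower at p under 0.05, when 12.5% and 2.12% of all genes were. Among bright genes alone this held for 37.4% and 4.47%, and for 14 and 1 of the 33 bright members. The DP arrays lay above all CD31+ arrays for 18 genes and below them for 1, against 16.9% and 3.42% of all genes, but all except 6 of the members were bright, and of the genes with a mean of at least 5 this held for 46.9% and 5.5%, near the 16 and 1 of 33 members. Once arrays were centred it held for 7 and 8 of the 33, and for 20.7% of bright genes in each direction. Restricting the fit to the probe sets that reached a log2 value of 5 on 3 or more arrays, called the filter here, left 34 members. Of these, 11 passed as higher and 0 as lower, when 33.2% and 4.11% of all genes left did. Cebpd, the 1 member that entered the filter through the DP arrays only, is counted among the higher genes in every filtered fit. Filtering and centring together gave 6 higher and 4 lower, when 12.6% and 9.63% of all genes were. Members were thus called higher more often than all genes, most of which are dim, and about as often as bright or filtered genes. By role, the median difference was 1.94 for the growth and acute phase genes, 1.06 for the heat shock genes, 0.77 for the feedback regulators, 0.69 for the AP-1 group and 0.24 for the EGR and NR4A families.

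**Figure D1:**
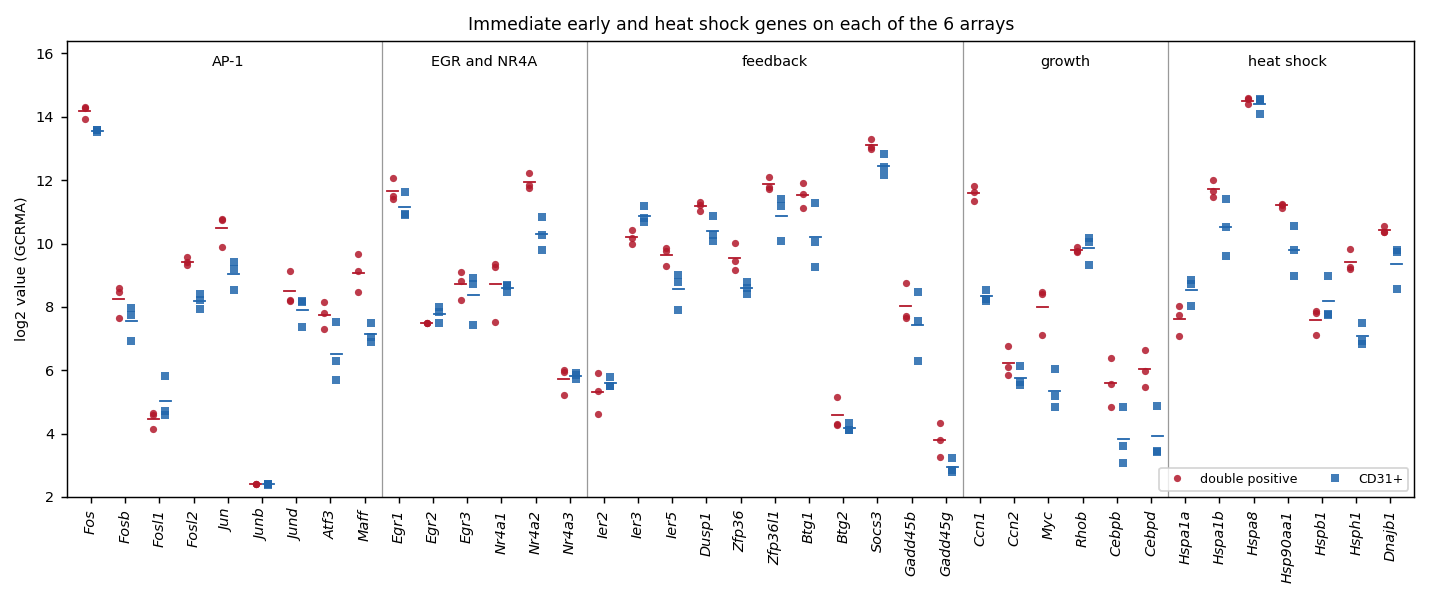
Log2 values (GCRMA) of the 39 genes on each array, in the order of their roles. Circles are DP arrays, squares CD31+ arrays (3 each), and bars are group means. Ccn1, Myc and Hsph1 show the widest gaps with DP higher, Hspa1a and Ier3 lie lower on the DP arrays, and Junb lies at the floor of 2.39.

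**Figure D2:**
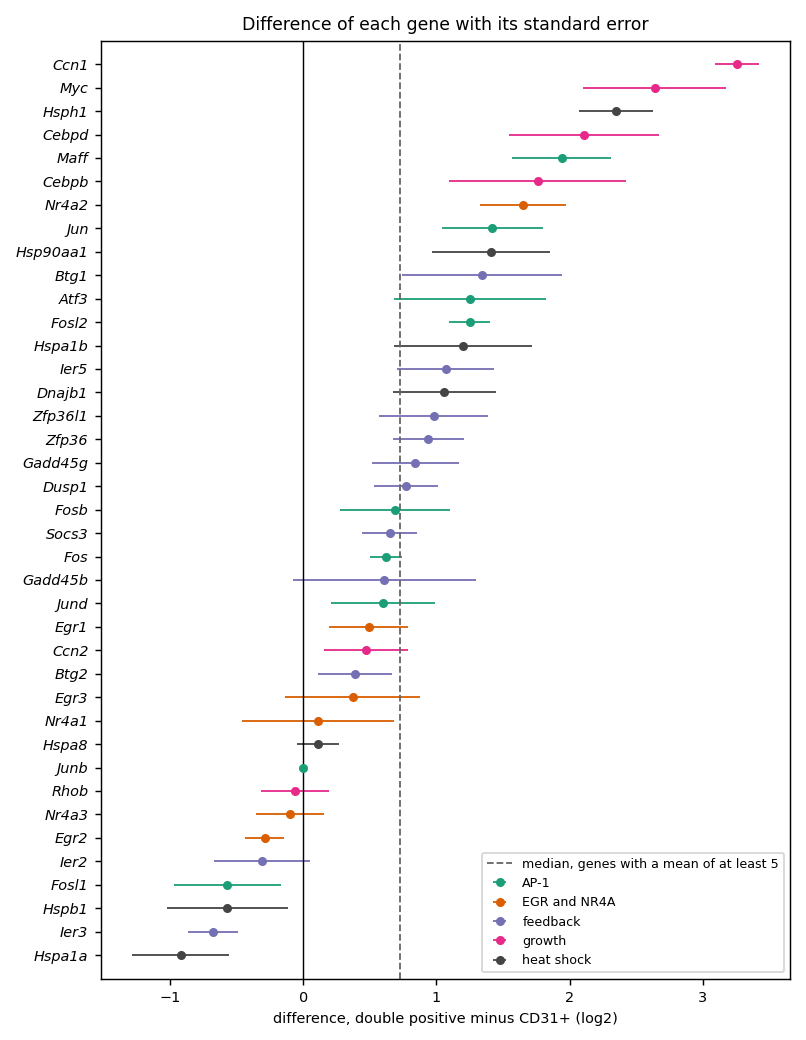
Difference of each gene, DP minus CD31+, in log2 units with its standard error from limma, sorted by size and coloured by role. The dashed line is the median of 0.73 over the genes with a mean of at least 5, and of the 33 members with such a mean 16 lie above it.

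The growth and acute phase genes held the only gene of the list that passed the test without a filter. Ccn1 encodes a secreted matricellular protein that binds integrins and is a target of serum response factor and YAP. It read 11.35, 11.63 and 11.81 on the DP arrays, against 8.54, 8.25 and 8.20 on the CD31+ arrays. Every DP array lay far above every CD31+ array, and the pairs of arrays with the same number differed by 2.81, 3.38 and 3.61. The difference of 3.26 (SE 0.164) is 9.61-fold on the linear scale (adjusted p = 0.0169, limma), and Ccn1 was the 53rd of the 160 genes called higher when these are ranked by difference. It was 2.59 with centred arrays (adjusted p = 0.000110 with the filter, limma). Under a replicate block its adjusted p in limma was 0.195 without and 8.55e-06 with the filter, and leaving out any 1 array gave 0.0468 to 0.0665, with only CD31+ replicate 1 leaving it under 0.05. Of its other probe sets, 1 differed by 3.12 (adjusted p = 0.0501, limma) and the remaining pair by 1.16 and 1.38.

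Ccn2, the paralogue of Ccn1 and likewise a matricellular protein, did not share this difference. It read 6.76, 5.84 and 6.11 on the DP arrays, against 6.12, 5.54 and 5.63 on the CD31+ arrays. The groups overlapped, and its difference of 0.47 (SE 0.316, adjusted p = 0.659, limma) was below that of bright genes at large.

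Myc, a transcription factor of cell growth, came next to Ccn1 by size of difference among the members. It read 8.40, 8.47 and 7.12 on the DP arrays, against 6.03, 5.20 and 4.84 on the CD31+ arrays. The groups did not overlap, but the arrays of each spread over more than 1 log2 unit. The difference was 2.64 (SE 0.539, 6.23-fold), which did not pass over all probe sets (adjusted p = 0.198, limma) and passed with the filter (adjusted p = 0.00301) and with the filter and centred arrays (adjusted p = 0.00427).

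The C/EBP factors, leucine zipper proteins of the acute phase response, were dim on the CD31+ arrays. Cebpd read 5.99, 6.63 and 5.46 on the DP arrays, against 3.42, 4.88 and 3.44 on the CD31+ arrays. Cebpb read 5.55, 6.40 and 4.83 on the DP arrays, against 3.60, 4.83 and 3.06 on the CD31+ arrays. In both genes replicate 2 was the highest array of its group, and the Cebpb value of CD31+ replicate 2 reached the lowest DP value. The difference of Cebpd was 2.11 (SE 0.564, adjusted p = 0.323, limma). Cebpd is the member that entered the filter through the DP arrays only, so its filtered p-values are not given. Cebpb differed by 1.76 (SE 0.664, adjusted p = 0.566, limma), by 1.95, 1.58 and 1.76 in the 3 same-numbered pairs, and was too dim for the filter. Rhob, which encodes a small GTPase of endosomes, was level, with 9.79 ± 0.0841 on the DP arrays and 9.85 ± 0.455 on the CD31+ arrays (SD, n = 3 each).

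Among the AP-1 genes, which encode leucine zipper proteins that bind DNA in pairs, 0 of 9 passed over all probe sets (limma). By the unadjusted p 4 were higher and 0 lower, when 37.4% and 4.47% of bright genes were, and 7 of the 9 were bright. Maff, a small Maf protein without an activation domain, read 9.12, 9.66 and 8.48 on the DP arrays, against 7.06, 7.49 and 6.89 on the CD31+ arrays. The groups were apart by about 1 log2 unit at their nearest arrays. Its difference of 1.94 (SE 0.369, adjusted p = 0.173, limma) passed with the filter (adjusted p = 0.00460), and after centring as well at 1.26 (adjusted p = 0.0209).

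Jun, the main partner of Fos proteins, read 10.75, 10.78 and 9.90 on the DP arrays, against 9.20, 9.42 and 8.53 on the CD31+ arrays. Replicate 3 was the lowest array of both groups, and the paired differences of 1.54, 1.36 and 1.37 were close to each other. The difference of 1.42 (SE 0.378, adjusted p = 0.320, limma) passed with the filter (adjusted p = 0.0182) but not with the filter and centred arrays (0.75, adjusted p = 0.104), where it passed only with the replicate block added (adjusted p = 0.0411). A dimmer probe set of Jun differed by 1.14. Fosl2, a Fos relative also known as Fra-2, differed by 1.25 (SE 0.153, adjusted p = 0.0726, limma), with 9.43 ± 0.134 on the DP arrays and 8.18 ± 0.242 on the CD31+ arrays (SD, n = 3 each), and passed with the filter (adjusted p = 0.00982) but not with centred arrays in addition (adjusted p = 0.128).

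Fos, the founding gene of the class, was bright on all arrays. It read 14.31, 13.92 and 14.28 on the DP arrays, against 13.57, 13.52 and 13.57 on the CD31+ arrays. The groups did not overlap, and the CD31+ arrays agreed within 0.0314 (SD). The difference of 0.62 (SE 0.120, adjusted p = 0.179, limma) was the size of the general shift, and with centred arrays it was -0.06. Fosb differed by 0.69 and Jund by 0.60, both with overlapping groups. Atf3, a stress-induced factor of the same superfamily, differed by 1.25 (SE 0.570, adjusted p = 0.659, limma), but CD31+ replicate 2, at 7.53, lay above DP replicate 3, at 7.31. All 3 same-numbered pairs were higher, by 1.52, 0.61 and 1.62, and with the filter the adjusted p was 0.0654 without and 0.00716 with the replicate block. Fosl1 was dim, at 4.47 ± 0.269 on the DP arrays and 5.04 ± 0.672 on the CD31+ arrays (SD, n = 3 each). The 1 probe set of Junb lay within 0.1 of the floor on all arrays, where no difference could be seen.

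The EGR and NR4A families, zinc finger factors and orphan nuclear receptors, contained 1 gene that stood apart at its brightest probe set. Nr4a2 read 11.76, 11.86 and 12.24 on the DP arrays, against 10.26, 10.84 and 9.80 on the CD31+ arrays. All DP arrays were higher, by 1.50, 1.01 and 2.44 in the same-numbered pairs. The difference of 1.65 (SE 0.321, adjusted p = 0.179, limma) passed with the filter (adjusted p = 0.00716), and after centring as well at 0.97 (adjusted p = 0.0410). Its next brightest probe set, at 9.20 on the DP arrays and 8.99 on the CD31+ arrays, differed by 0.22 only. There the groups overlapped, and the difference was below the general shift. The remaining probe sets differed by -0.02 to 1.07.

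The relatives of Nr4a2 showed no such gap. Nr4a1 read 7.53, 9.36 and 9.25 on the DP arrays, against 8.47, 8.67 and 8.68 on the CD31+ arrays. DP replicate 1 lay below all other arrays and the other DP arrays above them, so the mean difference of 0.11 (SE 0.572) covers arrays that disagreed. Nr4a3 had 5.72 ± 0.445 on the DP arrays and 5.83 ± 0.0989 on the CD31+ arrays (SD, n = 3 each).

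Egr1, whose product activates many second-wave genes, read 12.06, 11.39 and 11.49 on the DP arrays, against 11.62, 10.91 and 10.94 on the CD31+ arrays. The groups overlapped, because replicate 1 was the highest array in both, while the paired differences of 0.45, 0.48 and 0.56 were nearly equal. The difference of 0.49 (SE 0.298, adjusted p = 0.659, limma) was below the general shift. Egr2 read 7.49, 7.48 and 7.48 on the DP arrays, against 8.01, 7.83 and 7.49 on the CD31+ arrays. The DP arrays hardly varied (SD 0.00278), and CD31+ replicate 3 read the same. The difference was -0.29 (SE 0.148, adjusted p = 0.659, limma), and -0.46 at the other probe set. With the filter Egr2 passed as lower only after centring, at -0.97 (adjusted p = 0.0198). Most of that value comes from centring, which lowers every difference by 0.68. Whether the level DP values are signal was not tested. Egr3 had 8.72 ± 0.449 on the DP arrays and 8.36 ± 0.80 on the CD31+ arrays (SD, n = 3 each).

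Of the 11 feedback regulators 0 passed over all probe sets (limma), with 4 higher and 1 lower by the unadjusted p (37.4% and 4.47% of bright genes). Without overlap 6 lay higher and 1 lower, when 46.9% and 5.5% of bright genes did. Of the 11 regulators 9 were bright, and the dim Gadd45g is among the 6. The one lower gene was Ier3, which protects cells from apoptosis and is a target of NF-kB. It read 10.44, 9.99 and 10.16 on the DP arrays, against 10.68, 10.79 and 11.17 on the CD31+ arrays. CD31+ replicate 3, the dimmest array for most genes, was the brightest array for Ier3. The difference was -0.68 (SE 0.189, adjusted p = 0.345, limma), which became -1.36 after filtering and centring and then passed (adjusted p = 0.0112).

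Dusp1 and Zfp36 act early to end the response. Dusp1, a phosphatase of p38 and JNK, had 11.31, 11.02 and 11.20 on the DP arrays, against 10.87, 10.27 and 10.08 on the CD31+ arrays. Zfp36, which targets AU-rich mRNAs for decay, had 10.03, 9.15 and 9.45 on the DP arrays, against 8.80, 8.42 and 8.58 on the CD31+ arrays. Neither pair of groups overlapped. The differences, 0.77 (SE 0.242, adjusted p = 0.432, limma) and 0.94 (SE 0.268, adjusted p = 0.364, limma), were close to the general shift and were 0.09 and 0.26 with centred arrays. Zfp36l1, a relative of Zfp36, differed by 0.98, and Ier5, which is linked to the activity of heat shock factor, by 1.07.

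Socs3, an inhibitor of JAK kinases below the IL-6 receptor family, gave different values at different probe sets. Its brightest probe set read 13.06, 13.29 and 12.98 on the DP arrays, against 12.41, 12.82 and 12.15 on the CD31+ arrays. Here the groups were separate but close, with a difference of 0.65 (SE 0.208, adjusted p = 0.444, limma). The next brightest, at 11.86 on the DP arrays and 10.11 on the CD31+ arrays, differed by 1.75 (adjusted p = 0.485, limma). With the filter it passed (adjusted p = 0.0231), and the brightest did not (0.106). The dimmest, at 5.3 and 3.52, differed by 1.77 (adjusted p = 0.554, limma) and was too dim for the filter.

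Btg1, an antiproliferative gene whose product recruits deadenylases, showed a similar spread. It differed by 1.34 (SE 0.601) at its brightest probe set, where CD31+ replicate 2, at 11.27, lay above DP replicate 1, at 11.13. Of its other probe sets, 1 differed by 2.20 and passed with the filter (adjusted p = 0.00510, limma), and a dim one differed by 0.48. Btg2 was dim, with 4.58 ± 0.490 on the DP arrays and 4.19 ± 0.124 on the CD31+ arrays (SD, n = 3 each). The stress genes Gadd45b and Gadd45g, whose products bind kinases upstream of p38 and JNK, differed by 0.61 and 0.84, and Ier2, a small nuclear protein, by -0.31.

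**Figure D3:**
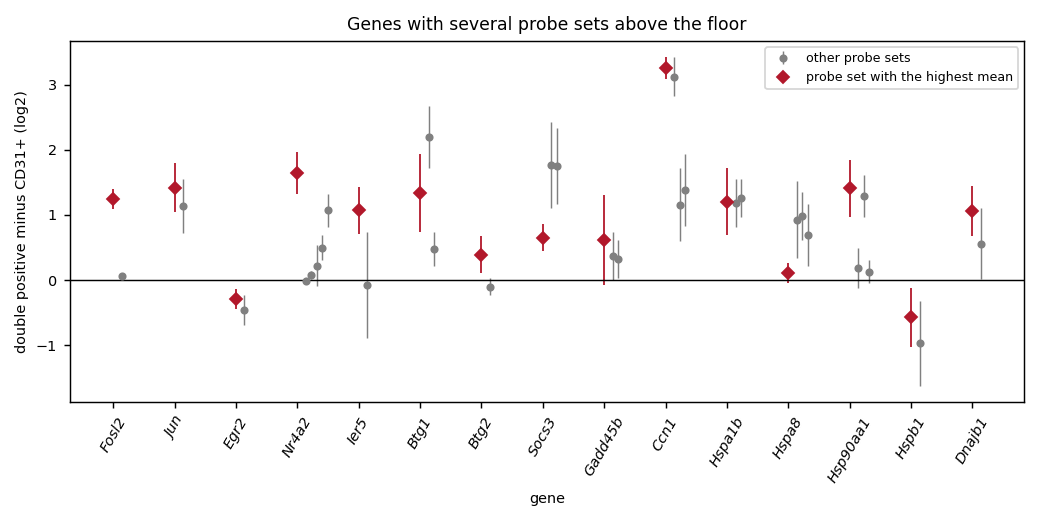
Differences, DP minus CD31+ in log2 units with standard errors, at each probe set above the floor for the 15 genes that had more than 1. Diamonds are the probe sets with the highest mean, circles the others. For 12 of the 15 genes all probe sets have 1 sign, while the size varies, as for Ccn1 from 1.16 to 3.26.

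The heat shock genes were divided. Hsph1, a large chaperone of the HSP110 family that exchanges the nucleotide of HSP70, read 9.84, 9.19 and 9.26 on the DP arrays, against 7.49, 6.92 and 6.84 on the CD31+ arrays. The lowest DP array lay far above the highest CD31+ array, and the same-numbered pairs differed by 2.35, 2.27 and 2.42. The difference of 2.35 (SE 0.278, 5.09-fold) had an adjusted p of 0.0688 over all probe sets and passed with the filter (adjusted p = 0.000857) and with the filter and centred arrays at 1.67 (adjusted p = 0.00164, limma). With the replicate block and no filter the adjusted p was 0.0972, and without the block or filter but with probe sets averaged it was 0.0335. The other probe set of Hsph1 lay within 0.1 of the floor on all arrays, and averaging with it lowered the difference to 1.18. Hsph1 is also the gene whose printed window holds the heat shock element, and any bearing of that element on the difference was not tested.

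Hsp90aa1, the inducible HSP90, read 11.11, 11.26 and 11.22 on the DP arrays, against 9.80, 10.56 and 8.98 on the CD31+ arrays. The DP arrays agreed closely and the CD31+ arrays ranged over more than 1 log2 unit. Its difference of 1.41 (SE 0.442, adjusted p = 0.428, limma) passed with the filter (adjusted p = 0.0248) but not with centred arrays in addition (adjusted p = 0.134). Its other probe sets above the floor differed by 0.13, 0.19 and 1.29. Dnajb1, an HSP40 cochaperone, differed by 1.06 (SE 0.386, adjusted p = 0.544, limma) with a similar spread, at 10.42 ± 0.110 on the DP arrays and 9.36 ± 0.689 on the CD31+ arrays (SD, n = 3 each).

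The inducible HSP70 genes Hspa1a and Hspa1b are neighbours on chromosome 17 and near-identical copies, so each probe set can take up RNA of the other gene. The probe set named for Hspa1b read 11.67, 12.00 and 11.46 on the DP arrays, against 10.52, 11.40 and 9.62 on the CD31+ arrays. The probe set named for Hspa1a read 7.74, 8.04 and 7.07 on the DP arrays, against 8.85, 8.72 and 8.04 on the CD31+ arrays. The probe sets named for Hspa1b and for Hspa1a thus differed in opposite directions, and which gene each value belongs to is uncertain. All 3 probe sets of Hspa1b were higher, by 1.18 to 1.26 (adjusted p = 0.256 to 0.659, limma), and the single one of Hspa1a differed by -0.92 (SE 0.364, adjusted p = 0.609, limma). With the filter the dimmer probe sets of Hspa1b passed (adjusted p = 0.0333 and 0.019, limma), and its brightest did not (0.0605), nor did Hspa1a (0.0726). With the filter and centred arrays Hspa1a passed as lower, at -1.60 (adjusted p = 0.00335). The brightest probe set of Hspa1b, at 0.52, did not pass there (adjusted p = 0.327, limma).

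Hspa8, the constitutive relative of HSP70, was level at its brightest probe set. It had 14.51 ± 0.0989 on the DP arrays and 14.39 ± 0.268 on the CD31+ arrays (SD, n = 3 each), and its 3 other probe sets differed by 0.69 to 0.99 without passing. Hspb1, a small heat shock protein that binds actin and unfolded protein, read 7.88, 7.80 and 7.12 on the DP arrays, against 7.73, 8.98 and 7.79 on the CD31+ arrays. The groups overlapped, with CD31+ replicate 2 above all others. The difference was -0.57 (SE 0.453, adjusted p = 0.659, limma), and -0.97 at the other probe set, and after filtering and centring Hspb1 passed as lower at -1.25 (adjusted p = 0.0289).

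The members also varied with the replicate number. For the 33 bright members, each array was expressed as its deviation from its own group. Arrays of equal number then correlated at 0.333, 0.390 and 0.304, whereas arrays of unequal number gave -0.332 to 0.0718. Deviations from a group mean cancel out over the arrays of that group. Positive values for equal numbers therefore force negative ones among unequal numbers, and the contrast is partly arithmetic. These correlations are descriptions over genes that share the same 6 arrays. The 5764 bright probe sets gave 0.341, 0.475 and 0.418 for the same numbers. Replicate 2 was the highest array of both groups for 11 of the 33, or 33.3%, against 14.6% of genes with a mean of at least 5. Among these were Jun, Atf3, Maff, Socs3, Gadd45b, Btg1 and Hspa1b. Replicate 1 was highest in both groups for 9, or 27.3%, against 27.6% of such genes, with Egr1, Dusp1, Zfp36 and Hsph1 among them, and replicate 3 for 0. CD31+ replicate 3 was the lowest CD31+ array for 24 of the 33, when this held for 67.5% of genes with a mean of at least 5. The within-group SD of the 33 had a median of 0.465, against 0.426 over those genes.

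**Figure D4:**
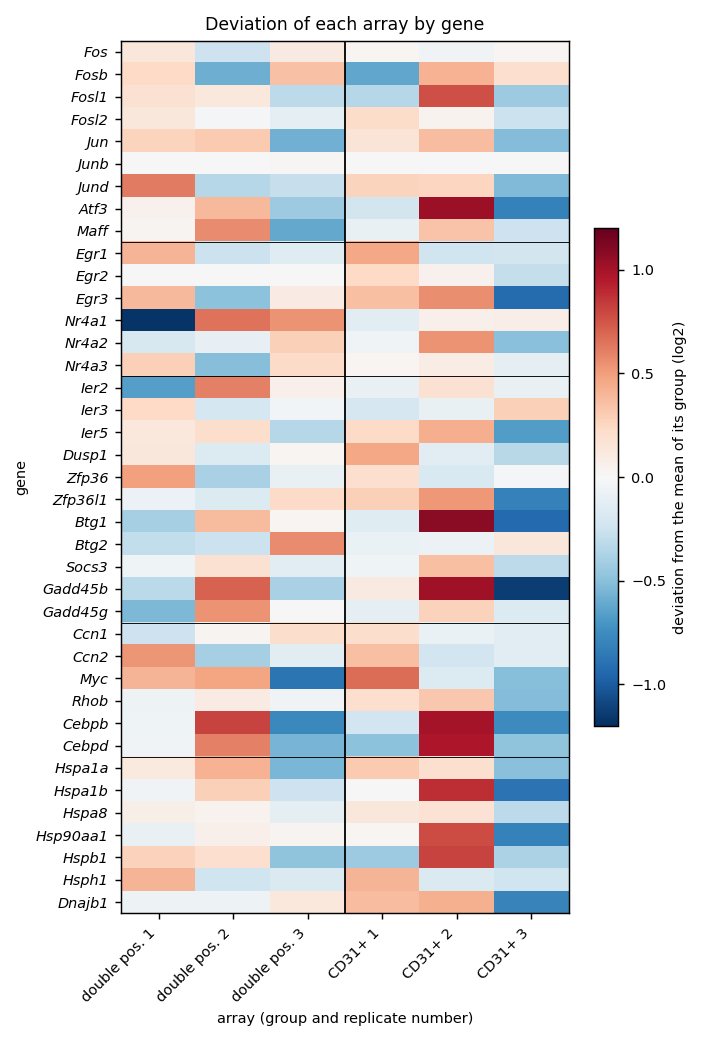
Deviation of each array from the mean of its group for the 39 genes, in log2 units (red above, blue below), DP arrays left and CD31+ arrays right, with genes in the order of their roles. Atf3, Maff, Gadd45b, Cebpb and Cebpd are red on replicate 2 of both groups, and CD31+ replicate 3 is blue for most genes.

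Fitted with a replicate block, limma called 0 members higher and 0 lower over all probe sets (0.011% and 0.0% of all genes). Before adjustment 18 and 1 had p under 0.05, when 12.6% and 2.06% of all genes did. Most genes are dim and 33 of the 39 members are bright, and the share among bright genes was not counted for this fit. The shares over all genes are thus not a like reference. With the block and the filter it called 17 higher and 1 lower, when 46.4% and 4.99% of all genes left were called. The 6 higher genes that the filter alone had not called were Atf3, Btg1 (adjusted p = 0.00864, against 0.0601 without the block), Hspa1b (0.00970 against 0.0605), Dnajb1 (0.0236 against 0.0521), Zfp36l1 (0.0377 against 0.0705) and Dusp1 (0.0463 against 0.0756). The 1 lower gene was Hspa1a (0.0208 against 0.0726). With centred arrays as well, an alternative chosen after the data were seen, 7 were higher and 7 lower, when 18.3% and 14.7% of all genes left were. The 7 higher were Ccn1, Myc, Hsph1, Maff, Cebpd, Nr4a2 and Jun, and the 7 lower were Hspa1a, Ier3, Hspb1, Egr2, Ier2, Nr4a3 and Rhob. Of these, Cebpd had entered the filter through the DP arrays only. Egr2 hardly varied on the DP arrays, and its call came only with centring.

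Other genes of the same pathways were taken from lists of upstream kinases, factors and further immediate early genes, and of further heat shock genes. Of 37 measured genes of the first list 0 passed over all probe sets, and 12 were higher and 3 lower by their unadjusted p. This held for 12.5% and 2.12% of all genes and for 37.4% and 4.47% of bright ones. The median difference was 0.37, against 0.00 over all genes and 0.73 over bright ones. Only 19 of the 37 had a mean of at least 5, so neither reference is like the list. The smallest p belonged to Mrtfb, a cofactor of serum response factor, which read 8.04, 7.73 and 7.55 on the DP arrays, against 9.11, 9.20 and 9.47 on the CD31+ arrays. The DP arrays were lower throughout, with a mean difference of -1.49 (adjusted p = 0.0655, limma), and it passed as lower with the filter and centred arrays (adjusted p = 0.000461). Srf itself had a difference of 0.22. Dusp2, a nuclear MAP kinase phosphatase, read 6.18, 7.75 and 6.96 on the DP arrays, against 2.80, 3.80 and 2.42 on the CD31+ arrays. This gap of 3.95 was wider than that of any member (adjusted p = 0.108, limma), and replicate 2 was again the highest array of both groups. Dusp2 entered the filter through the DP arrays only, so its filtered values are not given. Crem, a CREB relative, and Dusp6, a phosphatase of ERK, differed by 1.84 and 1.68 (adjusted p = 0.0992 and 0.173, limma).

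Of 23 measured genes of the further heat shock list 0 passed over all probe sets, and 9 were higher and 0 lower by their unadjusted p. This held for 12.5% and 2.12% of all genes and for 37.4% and 4.47% of bright ones. The median difference was 0.72. Only 13 of the 23 had a mean of at least 5, so neither share nor the median of bright genes is a like reference for the list. Dnajb4, an HSP40 protein, read 9.90, 9.55 and 9.87 on the DP arrays, against 7.20, 7.82 and 6.84 on the CD31+ arrays. The difference of 2.49 (SE 0.294, adjusted p = 0.0688, limma) was of the size of that of Hsph1 and passed with the filter and centred arrays (adjusted p = 0.000884). Hspa4l, which belongs to the HSP110 family as Hsph1 does, differed by 2.12, the HSP40 gene Dnaja1 by 1.62 and the mitochondrial cochaperonin gene Hspe1 by 1.24 (adjusted p = 0.153, 0.192 and 0.203, limma). Hspa4l and Hspe1 were too dim for the filter. Hspa4l averaged 4.8 on the DP arrays and 2.67 on the CD31+ arrays, near the floor of 2.39, and Hspe1 averaged 4.83 and 3.59. Bag3, a cochaperone induced by heat shock factor, differed by -0.58 and passed as lower with the filter and centred arrays, at -1.25 (adjusted p = 0.0448, limma).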

How the data were processed

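RNA (20 ng) went through 2 rounds of linear amplification before hybridization to Affymetrix mouse genome arrays, and the authors kept arrays that passed reproducibility plots. The deposited values are on a log2 scale after GCRMA, which corrects background by probe sequence. Versions, and which arrays were normalized together, are not given in the sources used here. Raw intensities were not used here. Of 45101 probe sets 64 were controls. Of the other 45037, 34945 had 1 gene symbol in the platform table, 932 several and 9160 none, and 34741 IDs matched RefSeq, which gave current symbols. All 45037 were fitted in limma 3.58.1 (R 4.3.3; lmFit and eBayes) with neither filter nor block, and p-values were adjusted by Benjamini-Hochberg at 5% FDR. The values have a floor at 2.39. The prior degrees of freedom were 0.356 in that fit and 4.92 when only the 6088 filtered probe sets entered.

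The replicate numbers are in the labels, the design text calls the samples paired, and every same-numbered pair of arrays correlated over 0.1 in its deviations from the group means, so blocked values are given where they change a call with or without the filter. Labels give biological replicates, and nothing says how many mice each held. The named genes were all members, the up to 4 genes of each further list with the smallest p, and Pdpn, Lyve1, Flt1 and Cd34 for the gates. Prox1, Pecam1, Ptprc, Thy1, Col1a2, Col3a1, Srf and Bag3 were named after their values were seen. The members and lists were chosen with earlier results of these data known. Alternatives were the block, the filter, centred arrays, trend and robust eBayes, array weights, other choices of probe set, 1% FDR and arrays left out. Scripts were tested on simulated data. Motif shares were counted over 32851 RefSeq promoter windows. Some genes of the further lists are not reported here. Plots used matplotlib 3.10.9 (Python 3.11.15).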

Additional observations from a re-analysis of the deposited data

How the results depend on the processing

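Without a filter limma called 1 member higher and 0 lower, and 160 and 32 of all genes. The replicate block gave 0 members higher, and 2 and 0 of all genes. The filter on dim probe sets gave 11 members higher, and 1398 and 173 of all genes, and with the block 17 higher and 1 lower, and 1950 and 210. These and the further filtered counts of higher members include Cebpd, which entered the filter through the DP arrays only. Centred arrays without the filter gave 12 members higher and 10 lower, 1310 and 12217 of all genes and a median member difference of 0.01, since centring also moves the values at the floor. There Junb, at the floor, was at -0.67 and Hspa8 at -0.57, and both turned from above 0 to called lower. With the filter and centred arrays there were 6 members higher and 4 lower, 530 and 405 of all genes, and a median of 0.05, and with the block added 7 and 7, and 771 and 618. Probe sets averaged per gene gave 2 members higher (Fosl2 and Hsph1, with Ccn1 at an adjusted p of 0.0553 in limma), and 407 and 83 of all genes. For both Fosl2 and Hsph1 the second probe set lay at or near the floor, and averaging lowered their differences to 0.66 and 1.18. At 1% FDR 0 members were called, and 3 and 1 of all genes. Leaving out any 1 array gave 0 to 1 members higher, 0 lower, 31 to 66 of all genes higher and 4 to 34 lower, with a median member difference of 0.61 to 0.85. The call of Ccn1 was lost without any array except CD31+ replicate 1, and without DP replicate 2 the 1 member called was Fos, at 0.74. Leaving out both arrays numbered 2 gave 0 members higher, and 16 and 6 of all genes. Trend and robust eBayes, array weights and the probe set with the largest spread each gave 1 member higher. Of the 39 members, centring turned the sign of 10, so the sign of differences smaller than the general shift depends on the scaling. Signal limits Junb, which lay at the floor, and may limit Egr2, whose DP arrays hardly varied. Without the filter the block changed no call of a member other than Ccn1.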
